A study of Mus musculus with 30 samples.

Results

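Colonic CD81+ fibroblasts (FB) were compared with colonic PDGFRahi FB, using the 3 libraries of each population that the sample labels name. These are 6 of the 30 bulk RNA-seq libraries of a study that sorted 10 mesenchymal populations from mouse small intestine and colon. The comparison asks how fibroblasts on the crypt-base side of the colonic mucosa differ from those lying under its epithelium. Cells came from the colonic lamina propria of untreated C57BL6/Nrj mice aged 8 to 10 weeks. Dead cells and cells positive for lineage markers, CD31, BP3 or EpCAM, or high for NCAM, were removed before gating. CD81+ FB were then sorted as ESAM-1- PDPNint CD34+ CD90- cells and PDGFRahi FB as ESAM-1- PDPN+ CD34- cells, so that neither CD81 nor PDGFRα was itself used in the colonic gates. The labels give 3 individual mice as the source of both tissues, and the study describes separate experiments in which subsets of both were sorted from shared mice, but which libraries share a mouse is not given in the sources used here. The fits treat libraries as independent, and p-values measure the spread between these samples. In bulk libraries, fewer cells of a type and less RNA per cell cannot be told apart.

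Fibroblasts of the intestinal mucosa shape a gradient of signals along the crypt. Bone morphogenetic proteins (BMP) drive epithelial cells to differentiate, and BMP antagonists, Wnt ligands and R-spondins near the crypt base protect stem cells from that drive. Subepithelial fibroblasts rich in PDGFRα are known as a source of BMP and of non-canonical Wnt ligands, and CD81+ fibroblasts as a source of the BMP antagonist gremlin 1.

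The CD81+ FB libraries held 16181861, 18710840 and 13102446 estimated counts and the PDGFRahi FB libraries 7248567, 6865683 and 6986681. Depth therefore differed between the populations without overlap, and its part in the results was not tested. Levels are given as CPM, estimated counts scaled to library size with TMM factors over all 30 libraries, and 3 counts correspond to between 0.189 and 0.25 CPM in CD81+ FB and between 0.367 and 0.407 CPM in PDGFRahi FB. These floors cover counting error only. The CD81+ FB libraries were less alike than the PDGFRahi FB libraries. Across genes, which are not independent replicates, pairs of CD81+ FB libraries correlated at 0.7594 to 0.84 and pairs of PDGFRahi FB libraries at 0.8621 to 0.9268. The common biological coefficient of variation was 0.689 within CD81+ FB and 0.413 within PDGFRahi FB. Single CD81+ FB libraries stood apart for single genes, of which 3 were chosen here after their values were seen. Rspo3 reached 4345 CPM in replicate 3 against 9.21 and 42.7 CPM in replicates 1 and 2, Rspo1 reached 68.4 CPM in replicate 2 against 1.41 and 6.83 CPM in the others, and Col15a1 reached 1174 CPM in replicate 1 against 194 and 197 CPM.

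Most markers of both populations separated the libraries as labelled. A gene was called at an adjusted p under 0.05 together with a log2 fold change beyond 1.5 in either direction, by edgeR's quasi-likelihood test with Benjamini-Hochberg adjustment. Of 19 tested markers of CD81+ fibroblasts 15 were called higher in CD81+ FB, against 2.73% of all genes tested, and of 18 tested markers of PDGFRahi fibroblasts 11 were called higher in PDGFRahi FB, against 2.31%, with median log2 fold changes of 5.42 and -2.97 against 0.09 over all tested genes. The libraries of the populations did not overlap for 18 of the 19 and 16 of the 18 markers, against 23.4% of all genes tested. The exceptions were Has1 among the first and Cd9 and Aspn among the second, and Cd9 had its higher mean in CD81+ FB (log2 fold change 0.67, edgeR Benjamini-Hochberg adjusted p = 0.459). Has1 was not called (adjusted p = 0.137), but passed without CD81+ FB replicate 1 (0.00734) in the same edgeR test and by DESeq2 (0.0165). Whichever library was left out, 10 of the 15 and 8 of the 11 calls were kept, and a further call, that of Wif1, was kept in the 3 fits that tested it, those without a CD81+ FB library. Dpp4, with 1 count in PDGFRahi FB, and Wif1, with 1 count in CD81+ FB, passed the filter on low counts through their higher population alone. Both marker lists were chosen with earlier results of these data known, so their shares are a description and no independent support for the labels. Grem1, which encodes the secreted BMP antagonist gremlin 1 (chromosome 2, 113746164 to 113758646, GRCm38), stood at 2201, 1719 and 2014 CPM in CD81+ FB and at 25.1, 3.7 and 10.3 CPM in PDGFRahi FB. Ackr4, a scavenging receptor for the chemokines CCL19 and CCL21 (chromosome 9, 104084157 to 104126933), stood at 344, 657 and 425 CPM against 0.612, 22.2 and 2.58 CPM. Bmp7 (chromosome 2, 172868012 to 172940321) ran the other way, at 30.3, 6.49 and 11.2 CPM in CD81+ FB and 673, 650 and 646 CPM in PDGFRahi FB. For each of the 3 genes every library of one population lay above every library of the other. By edgeR's quasi-likelihood test with Benjamini-Hochberg adjustment, the log2 fold change was 7.23 ± 0.70 (SE) for Grem1 (adjusted p = 0.000549), 5.77 ± 1.11 for Ackr4 (adjusted p = 0.016) and -5.36 ± 0.60 for Bmp7 (adjusted p = 0.00106), where positive values mean higher in CD81+ FB. Without PDGFRahi FB replicate 3, Ackr4 had an adjusted p = 0.0634 in the same edgeR test and was no longer called.

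Pdgfra itself (chromosome 5, 75152292 to 75198215), the receptor that names the subepithelial population, was abundant in both. It stood at 964, 1102 and 703 CPM in CD81+ FB and 2387, 2398 and 2545 CPM in PDGFRahi FB. The groups did not overlap, but the log2 fold change of -1.42 ± 0.25 (edgeR quasi-likelihood test, Benjamini-Hochberg adjusted p = 0.0105) stayed under the threshold of 1.5 that a call required; without CD81+ FB replicate 2 it was -1.54 (adjusted p = 0.0189) and passed, as it did with upper-quartile scaling (-1.60) and length-scaled TPM counts (-1.78). Cd81, a tetraspanin that was not part of the gate, stood at 389, 456 and 273 CPM against 3.92, 6.38 and 15.6 CPM, a log2 fold change of 5.42 ± 0.57 (edgeR, Benjamini-Hochberg adjusted p = 0.000762) with all 3 CD81+ FB libraries above all 3 PDGFRahi FB libraries. The gate genes follow from the sort and are no finding. Cd34 averaged 1067 ± 236 CPM (SD, n = 3) in CD81+ FB and 33.7 ± 2.3 CPM in PDGFRahi FB, and Pdpn overlapped between the populations and was not called. Esam was below the filter on low counts. Thy1, which encodes CD90, went against its gate in one respect. It stood at 121, 117 and 58.3 CPM in the CD90- gated CD81+ FB, below the mean of 196 CPM in colonic CD90+ FB but above 2.45, 0 and 2.31 CPM in PDGFRahi FB, for which CD90 was not gated.

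Of 14522 genes tested, 732 (5.04%) were called by edgeR's quasi-likelihood test with Benjamini-Hochberg adjustment. Of these, 397 (2.73% of genes tested) were higher in CD81+ FB and 335 (2.31%) were higher in PDGFRahi FB. Counts of called members of the gene lists below are to be set against these shares. Which side had more calls depended on the fit, with 343 against 377 under upper-quartile scaling and 410 against 447 without CD81+ FB replicate 1. The 3 libraries of one population lay entirely above those of the other for 3402 of the tested genes (23.4%) and for 731 of the 732 called genes. An exact permutation test of 3 libraries against 3 reaches a p of 0.10 at best, and the calls therefore rest on dispersions that edgeR estimated across genes. The count was sensitive to the PDGFRahi FB libraries, falling to 306, 316 and 349 without replicate 1, 2 and 3, and 298 of the 732 calls were kept in every fit without 1 library that tested them, 49 of which were not tested in all 6 of these fits. DESeq2 called 1340 genes. The median log2 fold change of all tested genes was 0.09.

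**Figure D1:**
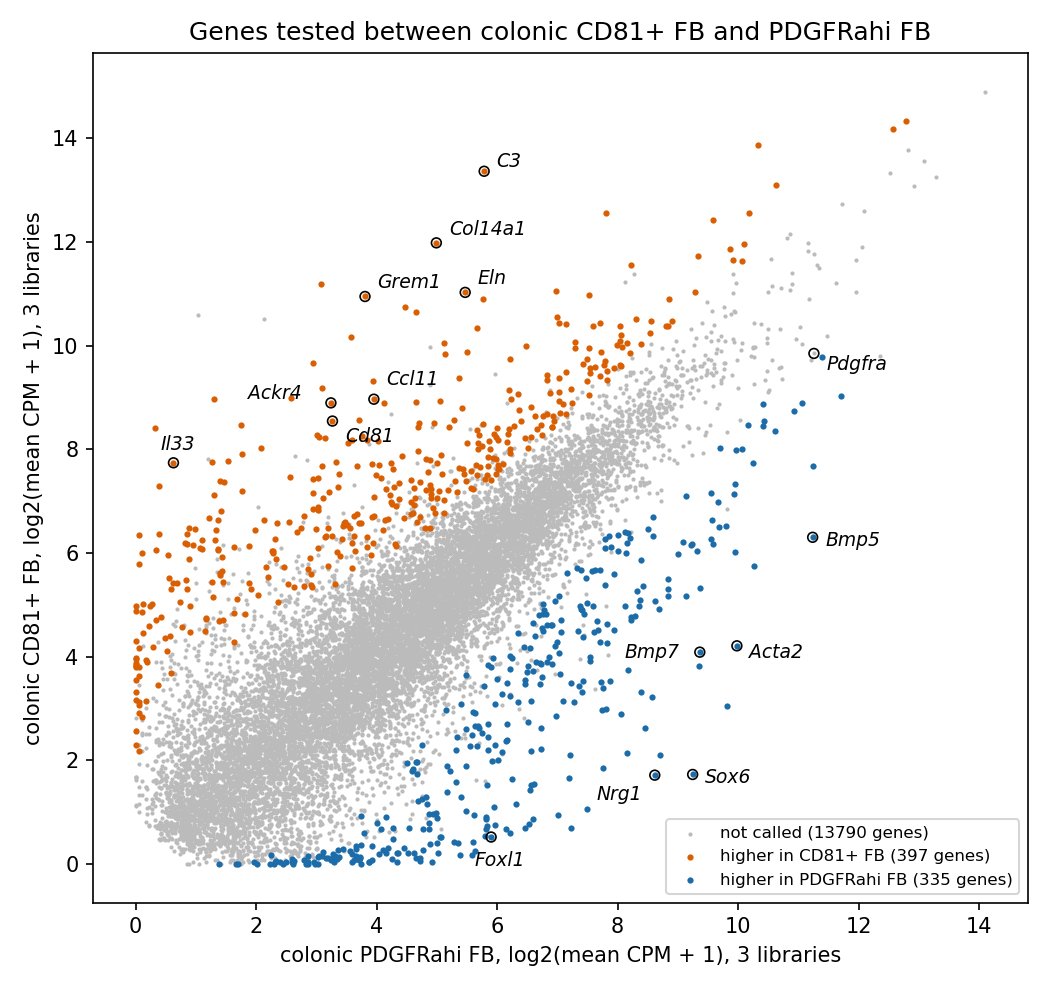
Mean level of each tested gene in colonic PDGFRahi FB (horizontal) and colonic CD81+ FB (vertical), as log2(CPM + 1) of the mean of 3 libraries, with the 397 genes called higher in CD81+ FB in orange, the 335 called higher in PDGFRahi FB in blue and 15 named genes circled. Grem1, C3 and Col14a1 lie far above the diagonal, Bmp7, Sox6 and Nrg1 far below it, and Pdgfra close to it.

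BMP ligands were called in both directions. The list of BMP and GDF ligands also held the activin subunit gene Inhba. Of its 12 genes tested, 5 were called higher in PDGFRahi FB (Bmp2, Bmp3, Bmp5, Bmp7 and Inhba), 3 higher in CD81+ FB (Bmp6, Gdf6 and Gdf10) and 4 were not called, with a median log2 fold change of -2.17 against 0.09 over all tested genes. Bmp5 (chromosome 9, 75775364 to 75900310) stood in PDGFRahi FB at 2410, 2622 and 2194 CPM against 165, 34 and 34.9 CPM in CD81+ FB. Bmp2 stood at 477, 507 and 546 CPM in PDGFRahi FB against 51.4, 81.5 and 53.8 CPM, and Inhba, which encodes a subunit of activin A, at 346, 236 and 472 CPM against 4.45, 3.59 and 7.49 CPM. None of these groups overlapped. The log2 fold changes were -4.95 ± 0.67 for Bmp5, -3.05 ± 0.31 for Bmp2 and -6.09 ± 0.48 for Inhba (edgeR quasi-likelihood test, Benjamini-Hochberg adjusted p = 0.00264, 0.000669 and 0.000227). The Bmp3 call was lost with length-scaled TPM counts (edgeR, Benjamini-Hochberg adjusted p = 0.0552). Bmp4 differed less, at 1589, 997 and 548 CPM in CD81+ FB and 2098, 1960 and 2321 CPM in PDGFRahi FB, and was not called (adjusted p = 0.177, edgeR with Benjamini-Hochberg adjustment).

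Of the ligands called higher in CD81+ FB, Bmp6 stood at 446, 377 and 181 CPM against 65.1, 76.8 and 75.3 CPM. Its call was lost without PDGFRahi FB replicate 1, 2 or 3, at edgeR Benjamini-Hochberg adjusted p = 0.0736, 0.0627 and 0.0578. Gdf10 and Gdf6 had no count in any PDGFRahi FB library. Gdf10 stood at 6.64, 17.3 and 32.4 CPM in CD81+ FB, at least 48.6-fold higher when each PDGFRahi FB library is set to the floor of 3 counts, and Gdf6 at 16, 5.67 and 17.7 CPM, at least 34.1-fold higher. Both genes passed the filter on low counts through CD81+ FB alone. The Gdf10 call was lost in the model of all 30 libraries (edgeR, Benjamini-Hochberg adjusted p = 0.0642) and the Gdf6 call in that of the 15 colonic libraries (0.0756). On the scale of CPM per kilobase, which allows levels of different genes to be compared, Bmp5 and Bmp4 reached 668 and 1436 in PDGFRahi FB, and Bmp4 and Bmp6 reached 662 and 153 in CD81+ FB.

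BMP antagonists were also called in both directions. Of 15 tested, Grem1 and Chrdl1 were called higher in CD81+ FB, Twsg1, Nbl1 and Htra1 higher in PDGFRahi FB, and 10 were not called, with a median log2 fold change of 0.40 against 0.09 over all tested genes. Chrdl1, a chordin-like BMP-binding protein, stood at 47.5, 22.6 and 36.7 CPM in CD81+ FB and 0.857, 5.1 and 3.26 CPM in PDGFRahi FB. Twsg1, which encodes a secreted protein that binds BMP together with chordin, stood at 560, 411 and 308 CPM and 1648, 1691 and 2504 CPM. The groups were separate for both, but only the Twsg1 call, a log2 fold change of -2.20 ± 0.32 (edgeR, Benjamini-Hochberg adjusted p = 0.00372), was kept whichever library was left out. The Chrdl1 call was lost without CD81+ FB replicate 3 (adjusted p = 0.0674) and without PDGFRahi FB replicate 1, 2 or 3 (0.119, 0.073 and 0.148) in the same edgeR test. Nbl1 was lost without CD81+ FB replicate 3 (edgeR, Benjamini-Hochberg adjusted p = 0.0959) and without PDGFRahi FB replicate 1, 2 or 3 (0.146, 0.134 and 0.116), and Htra1 without PDGFRahi FB replicate 1, 2 or 3 (0.116, 0.0578 and 0.103). Grem1 reached 503 CPM per kilobase in CD81+ FB and 3.3 in PDGFRahi FB. Among 13 BMP receptors and co-receptors tested, Tgfbr3 and Rgmb, both co-receptors, were called higher in CD81+ FB and 11 were not called, with a median log2 fold change of 0.62. Rgmb lost its call without PDGFRahi FB replicate 1, 2 or 3 (edgeR, Benjamini-Hochberg adjusted p = 0.0639, 0.0564 and 0.061).

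**Figure D2:**
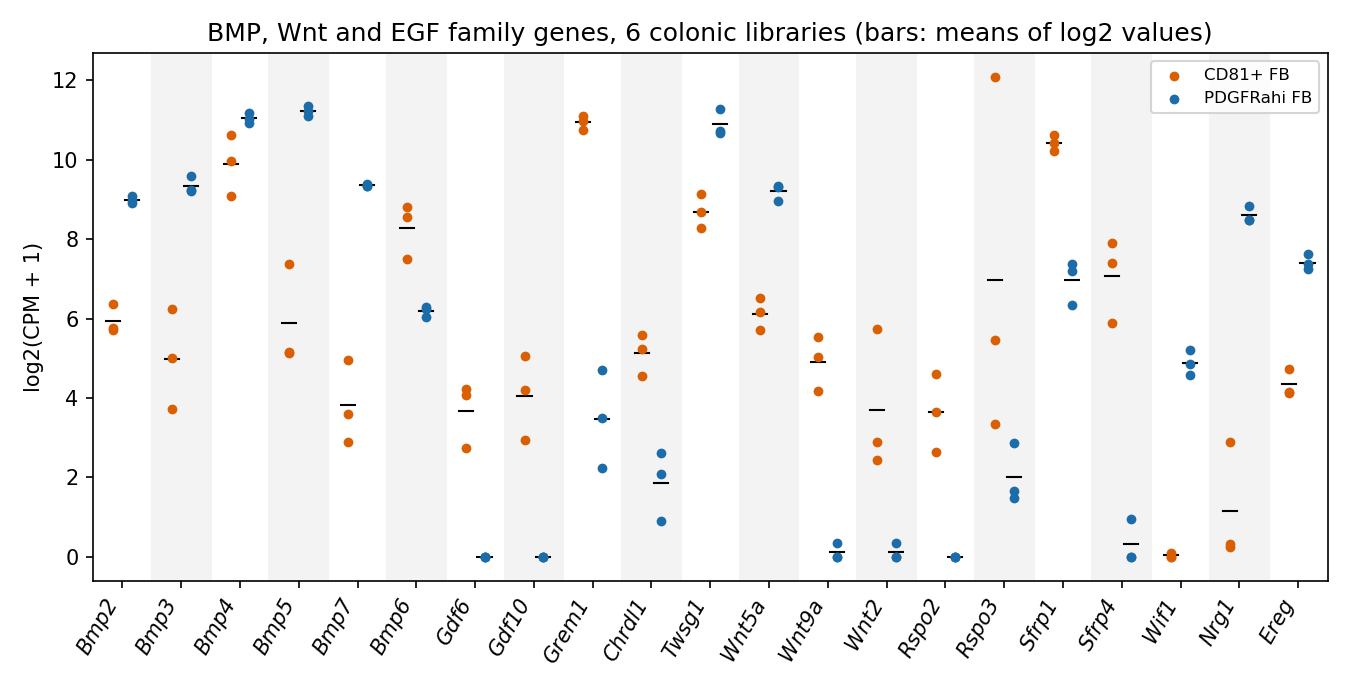
Level of 21 BMP, Wnt and EGF family genes in each of the 6 colonic libraries, as log2(CPM + 1), with CD81+ FB in orange, PDGFRahi FB in blue and bars at the mean of the log2 values of 3 libraries. Bmp5 and Bmp7 are high in PDGFRahi FB, Grem1 in CD81+ FB, and Rspo3 is spread from 9.21 to 4345 CPM among the CD81+ FB libraries.

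Wnt ligands were called in both directions. Of 9 tested, Wnt2 and Wnt9a were called higher in CD81+ FB, Wnt5a higher in PDGFRahi FB and 6 were not called, with a median log2 fold change of -1.52. Wnt2 and Wnt9a passed the filter on low counts through CD81+ FB alone. Wnt5a, the main ligand of non-canonical signalling, stood at 90, 51.1 and 70.8 CPM in CD81+ FB and 649, 494 and 638 CPM in PDGFRahi FB, a log2 fold change of -3.08 ± 0.33 (edgeR, Benjamini-Hochberg adjusted p = 0.00087) with separate groups. Wnt9a stood at 31.7, 45.4 and 17 CPM in CD81+ FB, and PDGFRahi FB held 2 counts in all, a ratio of 366 with a 95% counting interval of 101 to 3025. Wnt2 stood at 4.45, 52.5 and 6.41 CPM against 0, 0 and 0.271 CPM, and its call was lost without PDGFRahi FB replicate 1, 2 or 3 (edgeR, Benjamini-Hochberg adjusted p = 0.12, 0.131 and 0.0673). Wnt2b, a canonical ligand, stood at 330, 371 and 170 CPM against 95.3, 127 and 75.3 CPM, with no overlap, but missed the call (log2 fold change 1.52, edgeR Benjamini-Hochberg adjusted p = 0.0539). In the same edgeR test it passed without CD81+ FB replicate 3 (adjusted p = 0.0208), and it passed by DESeq2 (0.0102) and in 4 other fits.

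R-spondins, which amplify Wnt signalling in stem cells, were uneven among the CD81+ FB libraries, and 1 of 3 tested was called. Rspo2 stood at 23.5, 5.23 and 11.6 CPM in CD81+ FB with no count in PDGFRahi FB, at least 34.8-fold higher against 3 counts per library. Rspo2 passed the filter on low counts through CD81+ FB alone. It lost its call without PDGFRahi FB replicate 1 or 2 (edgeR, Benjamini-Hochberg adjusted p = 0.0536 and 0.053). Rspo3 stood at 9.21, 42.7 and 4345 CPM against 6.24, 1.79 and 2.17 CPM and was not called (edgeR, Benjamini-Hochberg adjusted p = 0.053), although it passed without CD81+ FB replicate 1 (adjusted p = 0.00916) or 2 (0.0318) and in 4 other fits, with p between 0.00245 and 0.0368. The median log2 fold change of the 3 genes was 8.74, or 5.12 with Rspo2 at its bound. One library thus carried nearly all Rspo3 counts of CD81+ FB.

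Secreted Wnt inhibitors were called in both directions. Of 13 Wnt antagonists tested, Sfrp1, Sfrp2 and Sfrp4 were called higher in CD81+ FB, Wif1 and Dkk3 higher in PDGFRahi FB and 8 were not called, with a median log2 fold change of 0.23. Sfrp1, a decoy for Wnt ligands, stood at 1368, 1586 and 1194 CPM in CD81+ FB and 80.2, 165 and 145 CPM in PDGFRahi FB, a log2 fold change of 3.39 ± 0.35 (edgeR, Benjamini-Hochberg adjusted p = 0.00067). Sfrp4 stood at 169, 240 and 57.9 CPM against 0, 0 and 0.95 CPM. Both decoys were higher in every CD81+ FB library. Wif1, which binds Wnt ligands directly, ran the other way at 23.1, 36.1 and 28 CPM in PDGFRahi FB with 1 count in all CD81+ FB libraries together, a ratio of 1183 with a 95% counting interval of 212 to 46722. Wif1 passed the filter on low counts through PDGFRahi FB alone. Lef1, a transcription factor of the Wnt pathway, was the one called gene of 9 Wnt response genes tested, at 3.98, 6.74 and 5.91 CPM in CD81+ FB and 76.7, 64.4 and 71.8 CPM in PDGFRahi FB (log2 fold change -3.69 ± 0.48, edgeR Benjamini-Hochberg adjusted p = 0.00223). The Sfrp2 call was lost without CD81+ FB replicate 1 or 2 (edgeR, Benjamini-Hochberg adjusted p = 0.0515 and 0.0689) and without PDGFRahi FB replicate 1, 2 or 3 (0.105, 0.121 and 0.164). The Dkk3 call was lost without CD81+ FB replicate 1 (log2 fold change -1.48) and without PDGFRahi FB replicate 2 or 3 (edgeR, Benjamini-Hochberg adjusted p = 0.0797 and 0.0821).

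Of the growth factors that act on epithelium through EGF receptors, 3 were called, each higher in PDGFRahi FB. Of 9 neuregulin and EGF family ligands tested, Nrg1, Ereg and Areg were called higher in PDGFRahi FB, and 6 were not called, with a median log2 fold change of -0.84 against 0.09 over all tested genes. Nrg1, the ligand of ERBB3 and ERBB4 (chromosome 8, 31814551 to 32884029), stood at 354, 460 and 359 CPM in PDGFRahi FB and 6.4, 0.189 and 0.25 CPM in CD81+ FB, and Ereg, which encodes epiregulin, at 150, 165 and 196 CPM and 16.4, 25.8 and 16.9 CPM. Areg averaged 4.03 ± 0.337 CPM (SD, n = 3) in PDGFRahi FB with 2 counts in CD81+ FB. It passed the filter on low counts through PDGFRahi FB alone and was not tested in fits without a PDGFRahi FB library. The Areg call was lost without CD81+ FB replicate 2 (edgeR, Benjamini-Hochberg adjusted p = 0.0608), with a replicate block (0.0856) and without a filter on low counts (0.0518). For Nrg1 and Ereg neither pair of groups overlapped, and the log2 fold changes were -7.43 ± 1.24 and -3.13 ± 0.37 (edgeR, Benjamini-Hochberg adjusted p = 0.00818 and 0.00143). Among other growth factors, Igf1 stood at 909, 950 and 958 CPM in CD81+ FB and 193, 231 and 205 CPM in PDGFRahi FB, a log2 fold change of 2.15 ± 0.26 (edgeR, Benjamini-Hochberg adjusted p = 0.00145). Igf1, the ligand of the insulin-like growth factor 1 receptor, varied little within either population. Gdnf, a neurotrophic factor of the enteric nervous system, stood at 47.9, 51 and 41.1 CPM in PDGFRahi FB and 0.312, 0.063 and 0 CPM in CD81+ FB. It passed the filter on low counts through PDGFRahi FB alone.

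Of 9 FGF ligands tested, Fgf2 and Fgf18 were called higher in CD81+ FB and Fgf9 higher in PDGFRahi FB, with a median log2 fold change of -0.51. The Fgf9 call was lost without PDGFRahi FB replicate 1, 2 or 3 (edgeR, Benjamini-Hochberg adjusted p = 0.0503, 0.102 and 0.0595), and the Fgf2 call without those (0.2, 0.0573 and 0.177), without CD81+ FB replicate 2 (0.056) and, at a log2 fold change of 1.45, without CD81+ FB replicate 1. Of 9 genes of the IGF axis tested 3 were called higher in CD81+ FB, with a median of 0.76, and 1 of these calls was kept whichever library was left out. Fgf18, a ligand of FGF receptors, stood at 11.2, 44.6 and 27.9 CPM in CD81+ FB with 2 counts in PDGFRahi FB, a ratio of 326 with a 95% counting interval of 90.3 to 2694. Fgf18 passed the filter on low counts through CD81+ FB alone. Its call was lost in the models of all 15 colonic and of all 30 libraries (edgeR, Benjamini-Hochberg adjusted p = 0.0724 and 0.0876). Among 13 genes of hedgehog reception and response tested, 2 were called higher in CD81+ FB and 3 higher in PDGFRahi FB, with a median of 0.05, and 2 of these 5 calls were kept whichever library was left out. The Gas1 call was kept in the 3 fits that tested it, those without a PDGFRahi FB library. Gas1, a hedgehog co-receptor, stood at 15.5, 117 and 65.3 CPM in CD81+ FB and 0.122, 0.383 and 0.271 CPM in PDGFRahi FB, where it lay near the floor in every library. Sema3c, a secreted guidance cue, stood at 980, 851 and 743 CPM against 71.3, 48 and 101 CPM, and was 1 of 3 genes called higher in CD81+ FB among 16 semaphorins and neuropilins tested, with 1 called higher in PDGFRahi FB and 3 of the 4 calls kept. Vegfd, a lymphangiogenic factor, stood at 288, 320 and 145 CPM against 26.2, 9.82 and 38.3 CPM, and was 1 of 3 angiogenic factors called higher in CD81+ FB among 16 tested, again with 1 called higher in PDGFRahi FB and 1 of the 4 calls kept. Of 11 Notch genes tested 0 were called by edgeR, while 3 had an unadjusted p under 0.05 and DESeq2 called 3, and of 10 posterior Hox genes 0 were called by edgeR, with 2 at an unadjusted p under 0.05 and 2 called by DESeq2. Over all genes, 16.2% had an unadjusted edgeR p under 0.05, and DESeq2 called 9.56% of those it gave an adjusted p, and nothing is read from such small counts.

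Transcription factors were called in both directions. Of 55 tested, 12 were called higher in CD81+ FB, 9 higher in PDGFRahi FB and 34 were not called, with a median log2 fold change of 0.14 against 0.09 over all tested genes, and 16 of the 21 calls were kept whichever library was left out. Sox6, an SRY-related factor (chromosome 7, 115470872 to 116038796), stood at 6.4, 0.189 and 0.333 CPM in CD81+ FB and 595, 696 and 524 CPM in PDGFRahi FB. Foxl1, a forkhead factor that marks subepithelial mesenchyme, stood at 1.09, 0.126 and 0.0832 CPM and 54.6, 50.8 and 70.7 CPM. Both were confined to low levels in CD81+ FB, highest in replicate 1, and had log2 fold changes of -8.04 ± 1.23 and -7.06 ± 0.99 (edgeR, Benjamini-Hochberg adjusted p = 0.00522 and 0.00334). Tbx2, Runx2 and Foxf2 were also called higher in PDGFRahi FB, at means of 91.2 ± 13.9, 232 ± 39.9 and 131 ± 25.1 CPM (SD, n = 3) against 0.706 ± 0.602, 10.6 ± 5.66 and 11.7 ± 5.85 CPM. On the CD81+ side, Ebf1, an early B cell factor that also acts in mesenchyme, stood at 1026, 752 and 653 CPM against 4.78, 5.87 and 9.36 CPM. All CD81+ FB libraries exceeded all PDGFRahi FB libraries, with a log2 fold change of 6.92 ± 0.43 (edgeR, Benjamini-Hochberg adjusted p = 8.43e-05).

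Of 17 elastic fibre and microfibril genes tested, 8 were called higher in CD81+ FB, Fbn2 higher in PDGFRahi FB and 8 were not called, with a median log2 fold change of 1.87 against 0.09 over all tested genes, and 8 of the 9 calls were kept whichever library was left out. Eln, which encodes elastin, stood at 2420, 1608 and 2241 CPM in CD81+ FB and 41.3, 15.1 and 73.6 CPM in PDGFRahi FB, and Fbn1, the main fibrillin of microfibrils, at 9847, 8500 and 8198 CPM and 1766, 1203 and 1771 CPM. Fbn2, the other fibrillin, was reversed at 29, 14.1 and 12.2 CPM and 235, 121 and 270 CPM. The log2 fold changes were 5.59 ± 0.58, 2.47 ± 0.25 and -3.51 ± 0.50 (edgeR, Benjamini-Hochberg adjusted p = 0.000679, 0.000619 and 0.00339), with separate groups for each. Dcn, the collagen-binding proteoglycan decorin, stood at 20196, 15142 and 9578 CPM against 1296, 1121 and 1429 CPM, and was 1 of 2 small leucine-rich proteoglycans called higher in CD81+ FB among 9 tested, of which Ogn was called higher in PDGFRahi FB. The Ogn call, at a log2 fold change of -1.54, was lost without CD81+ FB replicate 2 (-1.49) or 3 (-1.45), without PDGFRahi FB replicate 3 (edgeR, Benjamini-Hochberg adjusted p = 0.0569) and in the models of all 15 colonic and of all 30 libraries (0.124 and 0.125).

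Of 22 interstitial collagen genes tested, Col1a1, Col8a1 and Col14a1 were called higher in CD81+ FB, Col6a4, Col6a5, Col12a1 and Col27a1 higher in PDGFRahi FB and 15 were not called, with a median log2 fold change of 0.67. Col14a1, a collagen that associates with fibrils (chromosome 15, 55307750 to 55520803), stood at 3323, 4655 and 4187 CPM against 33.7, 25.5 and 33.1 CPM. Col6a4 stood at 1.33, 0.819 and 0.666 CPM in CD81+ FB and 117, 112 and 156 CPM in PDGFRahi FB. Neither gene came near overlap, and the log2 fold changes were 7.03 ± 0.31 and -7.09 ± 0.52 (edgeR, Benjamini-Hochberg adjusted p = 2.57e-05 and 0.000171). Col1a1, a chain of type I collagen, stood at 26338, 13246 and 22637 CPM against 7327, 4754 and 9059 CPM, only just past the fold threshold at a log2 fold change of 1.55 ± 0.32. Its call was lost without CD81+ FB replicate 1 (log2 fold change 1.34) or 3 (1.48) and without PDGFRahi FB replicate 1 or 2 (edgeR, Benjamini-Hochberg adjusted p = 0.124 and 0.132). The Col12a1 call was lost with length-scaled TPM counts (edgeR, Benjamini-Hochberg adjusted p = 0.0627). Of 25 basement membrane genes tested, Lamb2 alone was called higher in CD81+ FB, a share close to that of all genes tested, and 4 were called higher in PDGFRahi FB, with 3 of the 5 calls kept whichever library was left out, among them that of Lama1, a laminin chain, at 50.6, 48.5 and 67.9 CPM against 0.859, 0.378 and 1.42 CPM.

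Components and regulators of complement that were called were higher in CD81+ FB. Of 15 tested, 7 were called higher in CD81+ FB and 8 were not called, with a median log2 fold change of 1.41 against 0.09 over all tested genes, and 4 of the 7 calls were kept whichever library was left out. C3, the central complement component (chromosome 17, 57203970 to 57228136), stood at 7039, 15944 and 8721 CPM in CD81+ FB and 29.6, 56.5 and 76.1 CPM in PDGFRahi FB. It was higher in all CD81+ FB libraries, with a log2 fold change of 7.59 ± 0.52 (edgeR, Benjamini-Hochberg adjusted p = 0.000113). C7, a component of the membrane attack complex, stood at 134, 99.8 and 29.2 CPM against 0.122, 0.128 and 2.71 CPM, and its call was lost without PDGFRahi FB replicate 1 or 2 (edgeR, Benjamini-Hochberg adjusted p = 0.0536 and 0.0682). C5ar1, a complement receptor outside this list chosen after its values were seen, was called higher in PDGFRahi FB, at 15.2, 6.89 and 56.9 CPM against 0.0781, 0.063 and 0.499 CPM, and lost its call without PDGFRahi FB replicate 3 (adjusted p = 0.0932 in the same edgeR test).

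Immune mediators differed gene by gene. Of 23 chemokines tested, Ccl11 was called higher in CD81+ FB, Cxcl12 and Cxcl14 higher in PDGFRahi FB and 20 were not called, with a median log2 fold change of 0.02. Over all genes tested, 2.73% and 2.31% were called in these directions, and nothing is read from the small counts of this list. Ccl11, the eosinophil attractant eotaxin (chromosome 11, 82057823 to 82062955), stood at 370, 472 and 657 CPM in CD81+ FB and 6.98, 21.2 and 15.3 CPM in PDGFRahi FB, a log2 fold change of 5.09 ± 0.50 (edgeR, Benjamini-Hochberg adjusted p = 0.000571). Cxcl12, the ligand of CXCR4, stood at 438, 404 and 201 CPM and 1172, 1611 and 1291 CPM, and lost its call without PDGFRahi FB replicate 2 (edgeR, Benjamini-Hochberg adjusted p = 0.058), as did Cxcl14 (0.0701). Il33, an alarmin stored in the nucleus, stood at 235, 202 and 203 CPM in CD81+ FB and 0.612, 0.893 and 0.136 CPM in PDGFRahi FB. All 3 CD81+ FB libraries lay far above all 3 PDGFRahi FB libraries, and the log2 fold change was 8.55 ± 0.61 (edgeR, Benjamini-Hochberg adjusted p = 0.000148). Il34, a ligand of the receptor CSF1R, ran the other way at 0.468, 1.13 and 1.25 CPM and 41.8, 15.7 and 31.1 CPM, a call lost without PDGFRahi FB replicate 1 (edgeR, Benjamini-Hochberg adjusted p = 0.0574).

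Retinoid genes were called in both directions, and cyclooxygenases higher in PDGFRahi FB. Aldh1a1, which makes retinoic acid from retinaldehyde, stood at 83.7, 33.3 and 96.3 CPM in CD81+ FB and 601, 548 and 645 CPM in PDGFRahi FB. Adh1, an alcohol dehydrogenase that can oxidise retinol, ran the other way at 103, 125 and 31.2 CPM against 0.367, 0.51 and 3.66 CPM, and lost its call without PDGFRahi FB replicate 2 (edgeR, Benjamini-Hochberg adjusted p = 0.0613). The groups did not overlap for either enzyme. Of 15 retinoid genes tested, 2 were called higher in CD81+ FB, 3 higher in PDGFRahi FB and 10 were not called, with a median log2 fold change of -0.55. Among 13 prostaglandin genes tested, 2 were called higher in PDGFRahi FB and Ptgfr higher in CD81+ FB, with a median of -0.22. Ptgfr passed the filter on low counts through CD81+ FB alone. The Ptgfr call was lost without PDGFRahi FB replicate 1 or 3 (edgeR, Benjamini-Hochberg adjusted p = 0.0846 and 0.0572) and in the model of all 30 libraries (0.0694). Ptgs1, a cyclooxygenase, stood at 29.2, 44.3 and 25.5 CPM against 298, 281 and 413 CPM, a log2 fold change of -3.34 ± 0.36 (edgeR, Benjamini-Hochberg adjusted p = 0.000828). The inducible cyclooxygenase Ptgs2 stood at 10.7, 43.8 and 11.6 CPM against 198, 197 and 216 CPM, and lost its call without PDGFRahi FB replicate 2 (edgeR, Benjamini-Hochberg adjusted p = 0.0563). Both cyclooxygenases were thus higher in every PDGFRahi FB library.

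The contractile genes that were called were higher in PDGFRahi FB, and the immediate early genes that were called were higher in CD81+ FB. Of 15 smooth muscle contractile genes tested, 9 were called higher in PDGFRahi FB and 6 were not called, with a median log2 fold change of -2.91 against 0.09 over all tested genes, and 6 of the 9 calls were kept whichever library was left out. Acta2, which encodes smooth muscle actin (chromosome 19, 34241090 to 34255590), stood at 29.3, 13.4 and 9.66 CPM in CD81+ FB and 901, 685 and 1435 CPM in PDGFRahi FB, and Mylk, the kinase that activates myosin, at 80.5, 26.1 and 52.4 CPM and 1124, 1114 and 1447 CPM. No library of one population reached the other, and the log2 fold changes were -5.85 ± 0.55 and -4.54 ± 0.45 (edgeR, Benjamini-Hochberg adjusted p = 0.000458 and 0.000626). Myh11, the smooth muscle myosin heavy chain, stood at 87.7, 12.4 and 16.1 CPM against 322, 427 and 624 CPM. It lost its call without CD81+ FB replicate 3 (edgeR, Benjamini-Hochberg adjusted p = 0.0617) and without PDGFRahi FB replicate 1, 2 or 3 (0.0523, 0.0851 and 0.0791). Smooth muscle cell markers as a list summed to 504, 349 and 249 CPM in CD81+ FB and 533, 659 and 894 CPM in PDGFRahi FB, against a mean of 20107 CPM in small intestinal smooth muscle cells, with Hhip the most abundant in CD81+ FB and Myh11 in PDGFRahi FB. Of 9 of them tested, 2 were called higher in PDGFRahi FB and 1 higher in CD81+ FB, 0 of these 3 calls were kept whichever library was left out, and the part of smooth muscle cells in the result was not tested. For Hhip the call was lost without CD81+ FB replicate 2 or 3 (edgeR, Benjamini-Hochberg adjusted p = 0.109 and 0.0571) and without PDGFRahi FB replicate 1, 2 or 3 (0.239, 0.238 and 0.166).

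Of 20 immediate early genes tested, which respond rapidly to many stimuli, tissue dissociation among them, 10 were called higher in CD81+ FB and 10 were not called, with a median log2 fold change of 1.90. Of these calls 5 were kept whichever library was left out. Egr1 stood at 4696, 6916 and 4881 CPM in CD81+ FB and 682, 676 and 945 CPM in PDGFRahi FB, and Fos at 485, 677 and 453 CPM and 52.8, 89.8 and 99.6 CPM. Both were higher in all CD81+ FB libraries, with log2 fold changes of 2.82 ± 0.27 and 2.72 ± 0.35 (edgeR, Benjamini-Hochberg adjusted p = 0.000537 and 0.00214). The list summed to 10317, 15390 and 9811 CPM in CD81+ FB and 1825, 1917 and 2720 CPM in PDGFRahi FB, and its part in the other differences was not tested.

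**Figure D3:**
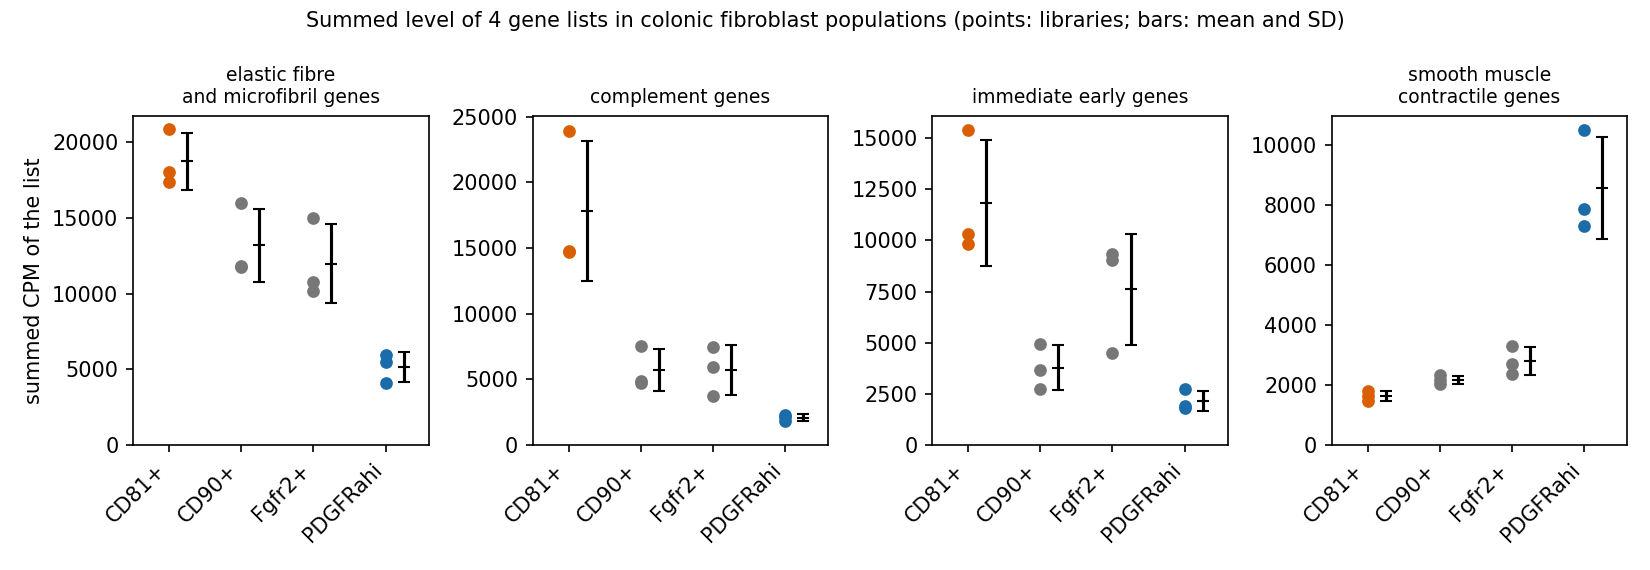
Summed CPM of 4 gene lists in each library of the 4 colonic fibroblast populations, with points for libraries and bars for the mean and SD of 3. Elastic fibre, complement and immediate early genes are highest in CD81+ FB and contractile genes in PDGFRahi FB, where the 3 libraries lie between 7299 and 10506 CPM.

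Both lists contain known targets of serum response factor, which binds a motif called the CArG box, and the motif was searched after their directions had been seen. In RefSeq promoter windows of 300 bases (GRCm38.p6), the CArG box, which reads the same on both strands, was found for 2 of 15 immediate early genes with a window (Egr2, in 4 of its 5 windows, and Zfp36) and for 1 of 12 contractile genes (Myl9), against 488 of 27025 genes in all (1.81%). Counted by window, these were 5 of 19, 1 of 13 and 535 of 32851 (1.63%). Egr2 was not called (edgeR, Benjamini-Hochberg adjusted p = 0.282), and among the called genes the motif was found for 1 of 8 immediate early and 1 of 7 contractile genes. The windows of called genes that held it, those of Zfp36 (chr7:28379179-28379478, minus strand) and Myl9 (chr2:156775214-156775513, plus strand), are shown with the motif in capitals because the 2 genes were called in opposite directions.
Zfp36: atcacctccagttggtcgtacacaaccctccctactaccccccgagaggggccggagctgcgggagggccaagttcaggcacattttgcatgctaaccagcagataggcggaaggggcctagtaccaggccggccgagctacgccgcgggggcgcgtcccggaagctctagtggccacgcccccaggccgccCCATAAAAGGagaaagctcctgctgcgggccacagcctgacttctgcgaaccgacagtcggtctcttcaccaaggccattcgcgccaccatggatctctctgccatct
Myl9: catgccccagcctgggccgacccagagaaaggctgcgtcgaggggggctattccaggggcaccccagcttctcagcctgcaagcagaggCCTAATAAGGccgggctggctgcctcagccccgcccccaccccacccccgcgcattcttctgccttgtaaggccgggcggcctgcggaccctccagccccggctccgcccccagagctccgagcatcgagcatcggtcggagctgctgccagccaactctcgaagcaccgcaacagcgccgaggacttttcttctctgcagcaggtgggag
Zfp36, an RNA-binding protein that destabilises cytokine transcripts, stood at 1218, 2019 and 930 CPM in CD81+ FB and 158, 204 and 264 CPM in PDGFRahi FB, and Myl9, a myosin light chain, at 31.3, 37.3 and 44.4 CPM and 298, 289 and 370 CPM. A match describes the sequence and not binding.

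Markers of other cell types were low in both populations, with a few exceptions. Epithelial markers summed to 25, 1.58 and 8.16 CPM in CD81+ FB and 12, 5.1 and 121 CPM in PDGFRahi FB, with Muc2 the most abundant in PDGFRahi FB at 39.3 CPM and Krt8 and Car1 at 0. Neither of the 2 tested was called by edgeR, by DESeq2 or at an unadjusted p under 0.05. Leukocyte markers summed to 25.9, 29.6 and 41.7 CPM and 22.2, 53.1 and 24.7 CPM, with Cd68 the most abundant and Cd3e, Adgre1 and Mcpt4 at 0. Of 7 tested, 0 were called by edgeR and 0 by DESeq2, and 1 had an unadjusted edgeR p under 0.05. Genes known from leukocytes but outside this list were nevertheless called, of which 6 were chosen after their values were seen. Ighm, the constant region of the immunoglobulin mu heavy chain, stood at 116, 48.4 and 75.7 CPM in CD81+ FB, above the sum of the list in each library, with 1 count in PDGFRahi FB, a ratio of 1874 with a 95% counting interval of 336 to 74022. Ighm passed the filter on low counts through CD81+ FB alone. Cd79a, of the B cell receptor, stood at 1.72, 0 and 2.25 CPM in CD81+ FB. Cd300e, Cd300lb, Klhl6, Slamf8 and H2-Ab1 were called higher in PDGFRahi FB, at means of 12.2, 6.25, 6.79, 3.96 and 11.6 CPM, with at most 8 counts of any of them in CD81+ FB. These genes passed the filter on low counts through PDGFRahi FB alone and were not tested in fits without a PDGFRahi FB library. Without CD81+ FB replicate 2 or 3 the calls of Cd300e (edgeR, Benjamini-Hochberg adjusted p = 0.053 and 0.0621), Slamf8 (0.0765 and 0.0625) and H2-Ab1 (0.0635 and 0.0847) were lost, and that of H2-Ab1 also without replicate 1 (0.0566). With a replicate block, the calls of Cd300lb and Slamf8 were lost (edgeR, Benjamini-Hochberg adjusted p = 0.053 and 0.0689). In the model of all 30 libraries, those of Cd300e, Cd300lb, Slamf8 and H2-Ab1 were lost (0.0599, 0.0682, 0.0924 and 0.162). Endothelial markers summed to 403, 382 and 346 CPM in CD81+ FB and 81.1, 69.3 and 159 CPM in PDGFRahi FB. Tek, the angiopoietin receptor, made up most of the CD81+ FB sum at 323, 331 and 266 CPM against 20.9, 6.76 and 10 CPM, and was the 1 gene called of 9 tested, a call lost with length-scaled TPM counts (edgeR, Benjamini-Hochberg adjusted p = 0.111). Pericyte markers summed to 468, 349 and 287 CPM and 637, 582 and 668 CPM against a mean of 43729 CPM in colonic pericytes, with Pdgfrb the most abundant in CD81+ FB and Abcc9 in PDGFRahi FB. Of 7 of them tested Cspg4 was called, higher in PDGFRahi FB. That call was lost without CD81+ FB replicate 2 (edgeR, Benjamini-Hochberg adjusted p = 0.0517) and without PDGFRahi FB replicate 1 or 3 (0.11 and 0.101). Of 3 tested markers of interstitial cells of Cajal, Ano1, a chloride channel, was called, at 1.01, 0.945 and 1.75 CPM in CD81+ FB and 78.2, 76.9 and 81.4 CPM in PDGFRahi FB, while Thbs4 was at 0. The list summed to 68.1, 15.5 and 39.5 CPM and 258, 311 and 255 CPM, with Etv1 the most abundant. Etv1 was not called (log2 fold change -3.09, edgeR Benjamini-Hochberg adjusted p = 0.0608), but passed in 10 of 17 alternative fits, DESeq2 among them (0.000936). Mesothelial markers summed to 1.72, 85.3 and 9.66 CPM in CD81+ FB and 8.82, 18.5 and 13.4 CPM in PDGFRahi FB, with Rspo1 the most abundant and Upk3b, Bnc1, Gpm6a and Muc16 at 0. Glial markers summed to at most 18.8 CPM in any of the 6 libraries, adipocyte markers to at most 14.8 CPM and erythroid markers to at most 6.83 CPM, with L1cam, Fabp4 and Alas2 among their most abundant genes and Foxd3, Adipoq, Cidec, Lep, Hba-a1, Hbb-bs and Hbb-bt at 0. Lymphoid stroma markers summed to 72.7, 139 and 150 CPM and 70.9, 72.8 and 101 CPM, with Vcam1 the most abundant. Of the tested genes of the mesothelial, glial, adipocyte, erythroid and lymphoid stroma lists 0 were called by edgeR, 0 by DESeq2 and 0 had an unadjusted edgeR p under 0.05. The part of other cell types in the results was not tested.

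The 15 genes with the largest fitted fold changes in each direction were taken from called protein-coding genes without overlap. Only genes with a mean of at least 10 CPM in the higher population were considered. Of these 15, several had no or almost no counts in the other population. Pthlh, a parathyroid hormone-related peptide, stood at 33.7, 23.8 and 27.6 CPM in CD81+ FB with no count in PDGFRahi FB, at least 73.5-fold higher against 3 counts per library. Flrt2, a transmembrane protein of axon guidance, stood at 449, 344 and 228 CPM in CD81+ FB and 0.245, 0.383 and 0.136 CPM in PDGFRahi FB. Edar, the ectodysplasin receptor, stood at 7.84, 21.1 and 7.87 CPM in PDGFRahi FB with no count in CD81+ FB, at least 54.6-fold higher, a call lost in the model of all 15 colonic libraries (edgeR, Benjamini-Hochberg adjusted p = 0.0676). For these 3 genes the lower population was at or near the floor in all its libraries. They passed the filter on low counts through the higher population alone. Trpa1, an irritant-sensing ion channel, stood at 33.1, 20.9 and 22.3 CPM in PDGFRahi FB with 3 counts in CD81+ FB, a ratio of 345 with a 95% counting interval of 118 to 1672. It passed that filter through PDGFRahi FB alone. In all, 14 genes called higher in CD81+ FB and 13 called higher in PDGFRahi FB had no count in the other population.

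Levels in the other colonic fibroblast populations are a description with no test, and the called genes were chosen for a large difference between CD81+ FB and PDGFRahi FB, so that nothing is read from how often other means fell between these 2. The means of both CD90+ FB and Fgfr2+ FB did so for 334 of the 397 genes higher in CD81+ FB (84.1%) and 259 of the 335 higher in PDGFRahi FB (77.3%), against 29.8% and 25.5% of all tested genes with a higher mean in the same population. Grem1 averaged 393 CPM in CD90+ FB and 353 CPM in Fgfr2+ FB, and Bmp7 46.2 and 69.4 CPM. Tnc, which encodes tenascin C, did not have CD81+ FB and PDGFRahi FB at the ends of its range, at 2405 ± 251 CPM (SD, n = 3) in PDGFRahi FB, 204 ± 61.5 CPM in CD81+ FB and a mean of 2842 CPM in Fgfr2+ FB.

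Small intestinal CD34+ FB and PDGFRahi FB, whose 6 libraries the colonic comparison did not use, gave 1351 calls among 15277 genes tested (8.84%), or 781, 803 and 809 without CD34+ FB replicate 1, 2 and 3. Of the 732 colonic calls, 411 were also called in the same direction there, which is 56.1% of the colonic and 30.4% of the small intestinal calls. By direction these were 239 of the 397 genes higher in colonic CD81+ FB and 172 of the 335 higher in colonic PDGFRahi FB. The difference between the populations itself differed between colon and small intestine for 247 of 16125 genes (1.53%), 82 of them toward CD81+ FB in colon and 165 the other way, in edgeR's quasi-likelihood test of the interaction with Benjamini-Hochberg adjustment, which treated its 12 libraries as independent although both tissues came from the same mice. That count was 420 and 494 without colonic CD81+ FB replicate 1 and 3, 148 without colonic PDGFRahi FB replicate 3, 139, 135 and 138 without small intestinal CD34+ FB replicate 1, 2 and 3, 163 without small intestinal PDGFRahi FB replicate 1, and 606 by DESeq2. Ccl11 and C7 were among 14 genes called in opposite directions in the 2 tissues. The colonic log2 fold change of Ccl11 was 5.09 and the small intestinal one -1.66, and those of C7 were 6.47 and -1.51. The difference was 6.73 for Ccl11 and 7.97 for C7 (edgeR, Benjamini-Hochberg adjusted p = 1.89e-05 and 0.00109). Tnfrsf19, a receptor of the tumour necrosis factor family chosen after its values were seen, went from -6.67 in colon to 3.38 in small intestine. The gates of both populations differed between the tissues. Small intestinal CD34+ FB, which hold Igfbp5+ FB and CD81+ FB, were ESAM-1- PDGFRaint CD34+ cells and small intestinal PDGFRahi FB were ESAM-1- PDGFRahi CD34- cells, with PDGFRα in the gates in place of PDPN. Tissue and gate therefore cannot be told apart in these differences.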

How the data were processed

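Bulk RNA-seq libraries of 10 sorted mesenchymal populations, 3 each, were available, and the 3 colonic CD81+ FB and 3 colonic PDGFRahi FB libraries were compared, with groups taken from the sample labels. The authors trimmed reads (Trim Galore 0.4.0, FastQC 0.11.2) and deposited, per transcript, an estimated count from kallisto 0.42.5. The authors also deposited TPM, which kallisto scales by transcript length and library, and these were used for alternatives only. Here estimated counts of 97116 of 98492 transcripts were summed to 32342 genes (GENCODE M21, GRCm38) and rounded. Genes reaching 6 counts in 3 or more of the compared libraries entered edgeR 4.0.16 (R 4.3.3) and were tested after TMM scaling, by its quasi-likelihood test with Benjamini-Hochberg adjustment, and called at an adjusted p under 0.05 and a log2 fold change beyond 1.5. A gene under 6 counts in every library of 1 population passed this filter through the other population alone. Small intestinal CD34+ and PDGFRahi FB were tested alike, and the interaction over 12 libraries.

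Alternatives were DESeq2 1.42.0, RLE and upper-quartile scaling, other filters and fold thresholds, models over more libraries, a replicate block, and each library left out. From the deposited TPM, length-scaled TPM counts and the difference of log2(TPM + 1) were used. Genes that share at least 50% of their 31-mers with other genes were treated as uncertain, which held for 11 of the called genes and for no gene named. Named genes were the population markers and gate genes, members of 50 gene lists that were called or carry the role of the list, and the 15 called protein-coding genes per direction with the largest fold change, no overlap and a mean of at least 10 CPM in the higher population. Some genes that meet this rule are not reported here. Members and lists were chosen with earlier results of these data known. Promoter sequences were from RefSeq (GRCm38.p6). Other genes named are said to have been chosen after their values were seen. Figures were drawn with matplotlib 3.10.9.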

Additional observations from a re-analysis of the deposited data

Results flagged for a closer look

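For 32 of the 115 named genes the difference between the populations, as a log2 fold change in colon minus that in small intestine, passed edgeR's quasi-likelihood test of the interaction with Benjamini-Hochberg adjustment. Over all genes tested this held for 247 of 16125 (1.53%). Of the 115 named genes 96 were called in colon, whose difference is part of this test, and some were chosen after their values were seen. Nothing is therefore read from the count of 32. The gates of both populations differed between the tissues, with PDGFRα gated in small intestine and PDPN in colon, so that tissue and gate cannot be told apart. Positive values mean a larger excess in CD81+ FB, or a smaller one in PDGFRahi FB, in colon.

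Among BMP, activin and Wnt genes the difference was -2.29 for Bmp2, -2.66 for Inhba, -1.61 for Twsg1, -4.62 for Sfrp1, -3.49 for Wnt2b and -4.16 for Lef1. It was 7.24 for Gdf6, a fitted value that depends on the prior count because colonic PDGFRahi FB had no count. Among other growth factors it was -4.28 for Ereg, 2.13 for Igf1, -3.62 for Gdnf and 2.17 for Sema3c, and -7.46 for Areg, fitted on 2 counts in colonic CD81+ FB. Among transcription factors it was 4.34 for Ebf1, -2.91 for Runx2 and -4.30 for Tbx2.

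Among matrix genes the difference was 2.58 for Col14a1, -7.86 for Col6a4, -7.72 for Col6a5, 1.74 for Fbn1, -7.41 for Lama1, 2.06 for Lamb2 and -2.56 for Tnc. Among immune genes it was 6.73 for Ccl11, 7.97 for C7 and 5.0 for Il33, and 10.00 for Ighm, fitted on 1 count in colonic PDGFRahi FB. It was 2.51 for Cd34, gated in both tissues, and 1.53 for Pdgfra, gated in small intestine and not in colon, and neither is a finding. It was -5.87 for Ano1, 5.22 for Abcc9, -2.87 for Hhip and -10.10 for Tnfrsf19.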

How the results depend on the processing

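Of 96 called genes named here, 59 kept their call in each of 17 alternative fits that tested them, and 0 of them reversed direction. The alternative with a log2 fold change threshold of 1 could lose no call, as it only loosened the main one. Each fit without 1 library tested 104 of the 115 named genes. A gene that passed the filter through 1 population alone was not tested without a library of that population, and can count among the 59. DESeq2 called 1340 genes in colon, 728 of them shared with the 732 of edgeR in direction, and 606 for the difference between tissues against 247. Leaving out each library in turn gave 306 to 857 calls in colon, 781 to 1673 in small intestine and 135 to 494 for the difference between tissues. The counts without colonic PDGFRahi FB replicate 1, 2 and 3 were the lowest in colon, at 306, 316 and 349, against 857, 630 and 718 without CD81+ FB replicate 1, 2 and 3. Upper-quartile scaling moved the median log2 fold change of all genes from 0.0893 to -0.0698 and gave 720 calls, 675 shared. Length-scaled TPM gave 577 calls in colon, 556 shared. Of the called genes named, 9 lost their call with length-scaled TPM, 15 in the model of all 30 libraries, 8 in that of the 15 colonic libraries, 7 with a replicate block, 3 with upper-quartile scaling and 2 without a filter on low counts. The mean difference of log2(TPM + 1) lay within 1 SD of the fitted value for 69 of 115 named genes and beyond it for 44. The SD here is the root of the summed variances of log2(TPM + 1) within each population. Adding 1 TPM shrinks the difference of a gene near 0 in 1 population whatever the processing, so nothing is read from these counts. Of the named genes not called, 6 changed sign in 1 or more alternatives. Leaving out each library in turn gave log2 fold changes of -4.14 to 0.25 for Alas2, -0.27 to 0.89 for Cd68, -0.22 to 1.62 for Col15a1, -0.89 to 0.01 for L1cam, -0.12 to 0.27 for Pdgfrb and -1.44 to 1.70 for Rspo1. It was -0.10 for Pdgfrb with upper-quartile scaling and -0.26 for Rspo1 with a replicate block, and the difference of log2(TPM + 1) was -0.27 for Pdgfrb and -0.53 for Rspo1.

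With the replicate number as a block, 618 genes were called in colon, 575 of them shared, 1205 in small intestine and 199 for the difference between tissues. Deviations of the libraries with the same number in CD81+ FB and PDGFRahi FB correlated across genes at -0.0153, -0.0288 and 0.0415, which is no sign of pairing by number, and although both tissues came from the same mice, neither the labels nor the study's methods say whether a number marks 1 mouse. The causes of these changes, depth among them, were not tested. In PDGFRahi FB, 3 counts correspond to 0.367 to 0.407 CPM, against 0.189 to 0.25 CPM in CD81+ FB.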
